A study of Mus musculus with 7 samples.

Results

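The AP-1 transcription factors described here are Fos, Fosb, Fosl1, Fosl2, Jun, Junb, Jund and Atf3, taken by symbol from the authors' deposited comparison of medial prefrontal cortex RNA. All 8 genes were listed, among 17732 in all. No cut on measured values was used to choose them, but earlier results of these data were known. The comparison is between a group labelled CFC (3 libraries) and a group labelled SC (4 libraries). All 7 came from wild-type male mice of the inbred strain 129SvEv, sampled after retrieval of a remote memory. The labels give no other allele or agent in either group, and the sources used here do not spell out CFC and SC or give the age of the mice or the time from retrieval to sampling. Nothing in them says that each library is 1 animal. The p-values below therefore weigh a difference between groups against the estimated variation between libraries. The table holds 1 row per gene: a normalized count averaged over the libraries, a log2 fold change between groups, and the standard error (SE) that belongs to it. Values per library were not analysed here, so the depth of each library is unknown and whether the 2 groups overlap cannot be shown. Neither the labels nor the table name the group in the numerator, so each log2 fold change is given by its sign, and which group had more of a transcript is unknown.

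AP-1 is a family of dimers that bind DNA through a basic leucine zipper. Fos family proteins (Fos, Fosb, Fosl1 and Fosl2) do not form stable dimers with each other and pair with a Jun family protein (Jun, Junb or Jund), while Jun proteins also pair among themselves. Atf3 belongs to the related ATF family, pairs with Jun proteins and is induced by stress and injury. In neurons, calcium entry and kinase signalling switch on Fos, Fosb and Junb within minutes through sites in their promoters, and Fos transcripts last only briefly, so they are widely used as marks of recently active cells. Jund is present in resting neurons.

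The starts of 4 of these genes show which signal-response letters lie next to the transcripts measured. The 250 bases before the RefSeq start are given 5′ to 3′ on the gene's strand, from the GRCm38 reference, whose strain is C57BL/6J and not that of these mice. Capitals mark the core of the cyclic AMP response element (TGACGT, searched on both strands), the variant AP-1 site known from the Jun promoter (TGACATCA, both strands) and the TATA box (TATAAA, given strand only). They would also mark the AP-1 site TGANTCA, searched on both strands.
Fos, chr12:85473640-85473889, plus strand: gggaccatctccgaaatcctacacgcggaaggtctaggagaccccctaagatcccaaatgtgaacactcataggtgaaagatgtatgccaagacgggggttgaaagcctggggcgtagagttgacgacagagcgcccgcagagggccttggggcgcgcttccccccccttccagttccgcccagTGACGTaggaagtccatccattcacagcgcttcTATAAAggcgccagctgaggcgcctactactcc
Fosb, chr7:19310046-19310295, minus strand: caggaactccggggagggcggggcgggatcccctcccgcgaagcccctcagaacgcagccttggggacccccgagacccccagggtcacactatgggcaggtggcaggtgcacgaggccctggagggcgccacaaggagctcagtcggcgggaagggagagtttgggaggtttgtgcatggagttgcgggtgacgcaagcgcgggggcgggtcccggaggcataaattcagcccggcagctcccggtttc
Jun, chr4:95052223-95052472, minus strand: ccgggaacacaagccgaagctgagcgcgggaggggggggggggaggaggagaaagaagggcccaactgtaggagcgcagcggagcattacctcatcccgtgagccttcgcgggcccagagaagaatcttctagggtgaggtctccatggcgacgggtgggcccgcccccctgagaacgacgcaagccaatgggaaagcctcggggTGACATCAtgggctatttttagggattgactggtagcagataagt
Junb, chr8:84978749-84978998, minus strand: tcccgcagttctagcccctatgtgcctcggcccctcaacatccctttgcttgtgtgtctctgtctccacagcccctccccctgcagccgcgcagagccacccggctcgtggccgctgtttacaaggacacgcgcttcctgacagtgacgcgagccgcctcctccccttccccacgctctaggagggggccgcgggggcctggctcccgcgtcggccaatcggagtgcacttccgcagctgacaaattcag
Fos held the cyclic AMP response element core 66 to 61 bases before its start and a TATA box 33 to 28 bases before it. Jun held its variant site 45 to 38 bases before the start, and the windows of Fosb and Junb held no exact match to these letters. Near matches, other response sites and bases further from the start were not searched. Of all 32851 RefSeq windows of the same length, 6.47% held the TGACGT core, 2.93% TGACATCA, 6.75% the AP-1 site TGANTCA and 7.59% the TATA box. RefSeq windows were found for 7 of the 8 genes, all except Fosl1. Those of Fosl2, Jund and Atf3 are not printed because their RefSeq starts lay 671, 1210 and 34706 bases from the gene start in GENCODE M21. The Atf3 window held the cyclic AMP response element core 8 to 3 bases before its RefSeq start. The windows of Fosl2 and Jund held no exact match. A match of letters is a description of the sequence, and these data do not measure binding.

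Jun family transcripts were more abundant than Fos family transcripts over the 7 libraries. Levels between genes were compared as the mean normalized count of the authors' deposited table divided by the length of the merged GENCODE M21 exons. On this scale Jund, the family member present at rest, was highest at 653 per kilobase, followed by Jun at 283 and Junb at 205. Fosl2 (Fra-2) stood at 52.6, Fos at 40.2 and Fosb at 34.5 per kilobase. Atf3 at 1.58 and Fosl1 (Fra-1) at 0.711 per kilobase were close to absent. The order of Fos and Fosb depends on the length used. With the longest annotated transcript Fosb was at 56.9 and Fos at 44.8 per kilobase, and the order of the other 6 genes was kept. No spread over libraries goes with these levels, so neighbours in the order cannot be said to differ. The gene-level table also does not separate the full-length and delta forms of Fosb.

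**Figure D1:**
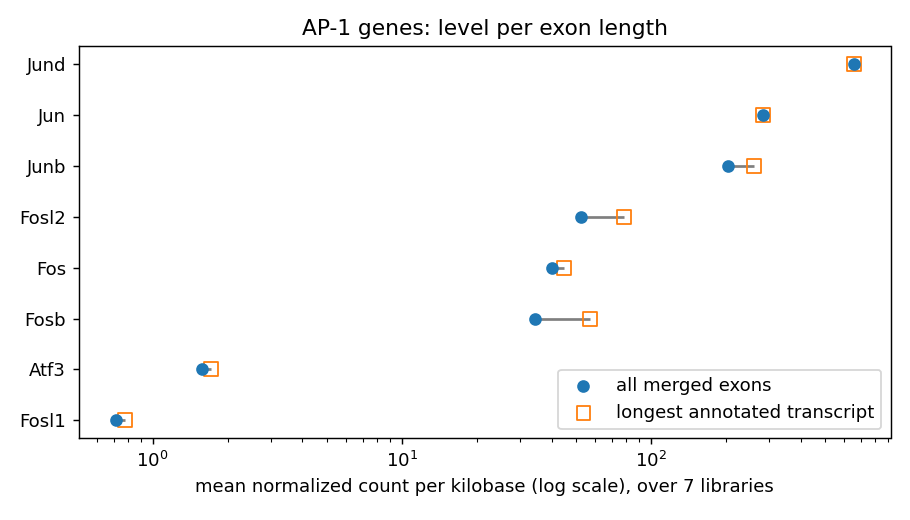
Mean normalized count per kilobase over 7 libraries for the 8 AP-1 genes, on a log axis, with merged exons (circles) or the longest annotated transcript (squares) as the length. Jund is highest at 653 per kilobase of merged exons, and Fosl1 and Atf3 lie far below the other 6 genes.

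The comparison of CFC and SC asks which transcripts differed between the groups after retrieval. None of the 8 AP-1 genes passed an adjusted p-value of 0.05 by the Wald test of the authors' deposited table (DESeq2, per the submitters' processing notes), a threshold that 0.513% of the 13060 genes with an adjusted p-value passed. Without adjustment, 3 of the 8 had a p-value under 0.05, Fos and Fosl2 with a positive and Jund with a negative log2 fold change. The share of all 17729 genes with a p-value that did so was 6.82% (4.04% positive and 2.78% negative). The 6 members with an adjusted p-value had a median log2 fold change of 0.16, with 5 positive and 1 negative, beside a median of -0.0017 over all 13060 genes in the authors' deposited table. Atf3 and Fosl1 had no adjusted p-value because their mean counts were under the authors' filter.

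Fos (ENSMUSG00000021250), at chr12:85473890-85477273 on GRCm38, encodes the founding Fos protein. The authors' deposited table gave it a mean normalized count of 94.4 and a log2 fold change of 0.73 ± 0.26 (SE). Its unadjusted p-value in the authors' deposited table was 0.00483, the 292nd smallest of 17729, and its adjusted p-value was 0.257. The difference was 1.65-fold, with a 95% confidence interval from 1.17-fold to 2.35-fold, computed from the authors' deposited table. If SC is the numerator, the deposited mean and fold change place the group levels near 114 normalized counts in SC and 68.8 in CFC. If CFC is the numerator, they would be near 122 in CFC and 73.8 in SC. Taken on its own the interval does not reach equal levels, and after adjustment over all genes the difference did not pass the threshold. Because tissue was measured in bulk, more cells with Fos transcripts and more transcript per cell cannot be told apart.

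Fosl2 (ENSMUSG00000029135), which encodes Fra-2, was also positive, by less. Its row of the authors' deposited table held a mean normalized count of 509 and a log2 fold change of 0.27 ± 0.11 (SE). The unadjusted p-value in the authors' deposited table was 0.0184 and the adjusted one 0.456. The 95% confidence interval ran from 1.03-fold to 1.41-fold, computed from the authors' deposited table, so a 2-fold difference lay outside it. The group levels would be near 549 and 455 normalized counts if SC is the numerator, and near 564 and 468 if CFC is, the numerator first in each pair.

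Fosb (ENSMUSG00000003545), the closest relative of Fos and likewise induced by activity, had a log2 fold change near 0. The authors' deposited table listed a mean normalized count of 215 and a log2 fold change of 0.03 ± 0.16 (SE). The unadjusted p-value was 0.838 and the adjusted one 0.999 in the authors' deposited table. The 95% confidence interval on the log2 scale ran from -0.29 to 0.35, computed from the authors' deposited table, and does not reach the 0.73 of Fos, while the intervals of both genes overlap. Whether Fos and Fosb differ in their response was not tested, since the same libraries gave both values and their covariance is not in the table.

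Junb (ENSMUSG00000052837), an activity-induced Jun protein, had a log2 fold change as large as that of Fosl2 with a wider error. The values of the authors' deposited table were a mean normalized count of 471 and a log2 fold change of 0.29 ± 0.22 (SE). The unadjusted p-value was 0.185 and the adjusted one 0.906 in the authors' deposited table. The 95% confidence interval ran from 0.908-fold to 1.65-fold, computed from the authors' deposited table, and so includes equal levels, with an upper end close to the fold of Fos. The exons of Junb overlap those of Prdx2, on the other strand, over 173 bases (7.52% of its exon length), and the strand setting of the counting is not given in the sources used here. Prdx2 itself was at a log2 fold change of -0.01 ± 0.08 (SE) in the authors' deposited table.

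Jun and Jund were the most precisely measured members. Jun (ENSMUSG00000052684), which forms the classical AP-1 dimer with Fos, had a mean normalized count of 904 and a log2 fold change of 0.06 ± 0.09 (SE) in the authors' deposited table. Its unadjusted p-value was 0.507 and its adjusted p-value 0.994 in the authors' deposited table. The 95% confidence interval from 0.923-fold to 1.18-fold, computed from the authors' deposited table, leaves room for only a small difference of either sign. Jund (ENSMUSG00000071076) was the only one of the 6 with a negative sign, at a mean normalized count of 1090 and a log2 fold change of -0.15 ± 0.07 (SE) in the authors' deposited table. Its unadjusted p-value was 0.0342 and its adjusted p-value 0.580 in the authors' deposited table. The 95% confidence interval of the fold change was 0.816 to 0.992, computed from the authors' deposited table. Over 52.6% of the single exon of Jund an antisense gene, Gm11175, is annotated in GENCODE M21, and Jun overlaps the antisense gene Junos over 7.28% of its length. Reads of these pairs cannot be told apart without the strand setting.

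Atf3 and Fosl1 could not be resolved at this depth. Atf3 (ENSMUSG00000026628) had a mean of 3.40 normalized counts and a log2 fold change of 1.40 ± 1.01 (SE) in the authors' deposited table. The unadjusted p-value of Atf3 in the authors' deposited table was 0.166. Fosl1 (ENSMUSG00000024912) had a mean of 1.45 normalized counts and a log2 fold change of -1.10 ± 1.48 (SE) in the authors' deposited table. Its unadjusted p-value in the authors' deposited table was 0.455, and 57.2% of its exon length overlaps Ccdc85b on the other strand. The 95% confidence intervals on the log2 scale, from -0.58 to 3.37 for Atf3 and from -4.00 to 1.79 for Fosl1, were computed from the authors' deposited table and include changes of over 2-fold in a positive direction for both.

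**Figure D2:**
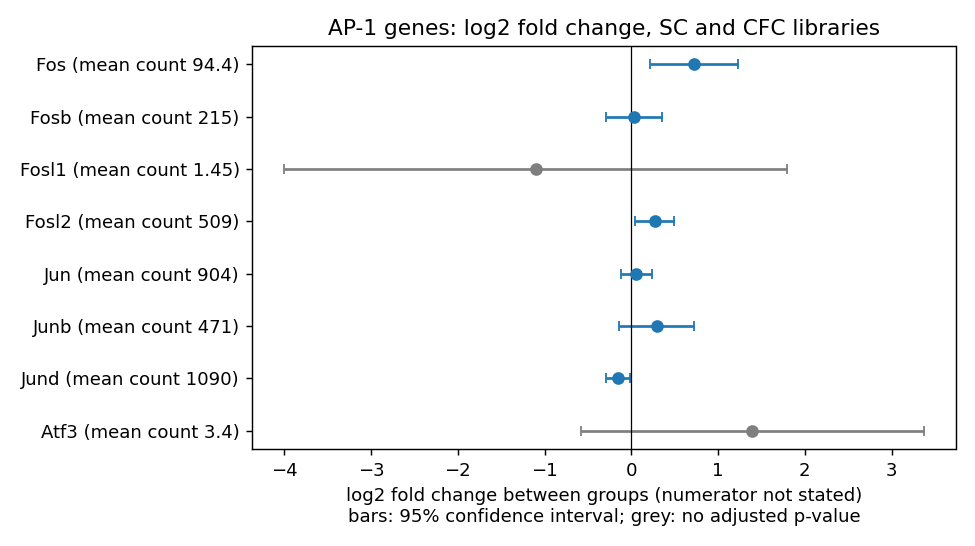
Log2 fold change between the groups for the 8 AP-1 genes (points) with 95% confidence intervals (bars), and the mean normalized count of each gene beside its name. The intervals of Fos, Fosl2 and Jund do not reach 0, and those of Atf3 and Fosl1 (grey, no adjusted p-value) are the widest.

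The standard errors give a model-based estimate of how much the members varied between libraries of a group. The authors' test draws the errors of single genes toward those of similar genes, so the values below are not an observed spread. Counting error alone, at equal depth in the 7 libraries, would give Fos a standard error of 0.11, and the deposited 0.26 in the authors' deposited table corresponds to a coefficient of variation between libraries of 21.0%. The same calculation gave 19.5% for Junb, 13.2% for Fosb, 9.39% for Fosl2, 7.40% for Jun and 5.78% for Jund. Fos, Junb and Fosb had the 3 highest values among these 6 genes. Part of this order follows abundance, since low counts go with wider errors across the table. Against the median of 200 genes of similar mean count, the standard error of Junb was 2.28 times as large, that of Fos 1.34 times, Fosb 1.23 times, Fosl2 1.2 times, Jun 1.14 times and Jund 0.970 times. A ratio above 1.5 was found for 2.23% of the 13060 genes, and for Junb alone among these 6. The ratio was above 1.5 for all 6 oligodendrocyte markers (median 7.38) and for 4 of 5 striatal markers (median 3.33), and their part in the spread of Junb was not tested. Which libraries carry this spread was not analysed here.

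**Figure D3:**
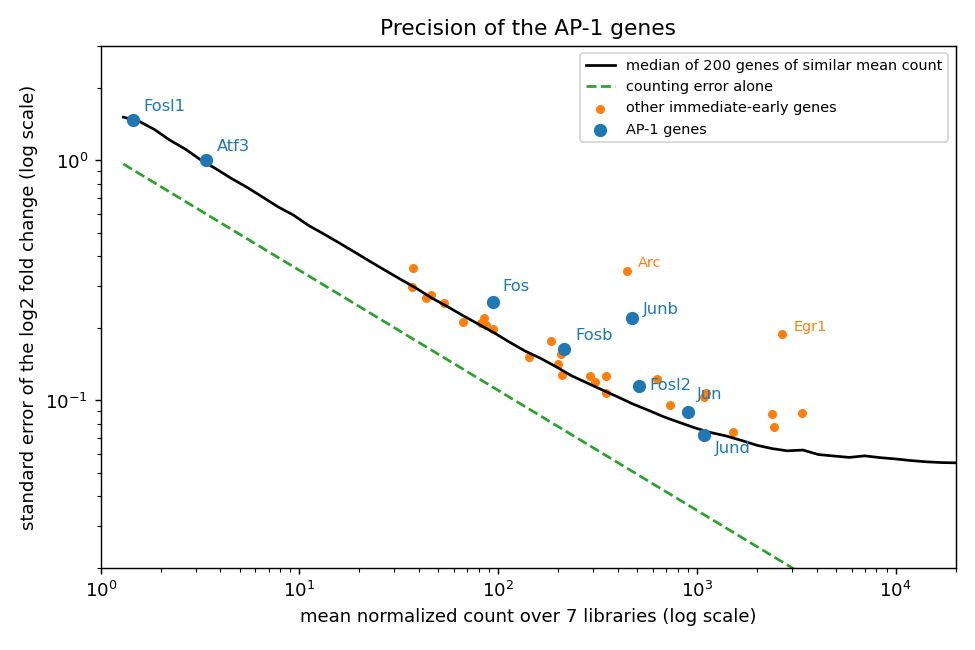
Standard error of the log2 fold change against the mean normalized count, both on log axes, for AP-1 genes (blue) and other immediate-early genes (orange), with the median of 200 genes of similar mean count (black line) and the error from counting alone (dashed). Junb, Arc and Egr1 stand above the black line, and Jund lies on it.

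Other genes of the pathway were counted in lists chosen for their roles. Among 15 other leucine zipper genes that can pair with or compete with AP-1 proteins, 11 had an adjusted p-value and none was under 0.05. Without adjustment, 1 had a p-value under 0.05, with a negative sign, beside 8.10% of all genes with an adjusted p-value. This was the Maf family factor Maf, at a log2 fold change of -0.29 ± 0.09 (SE) in the authors' deposited table, where its adjusted p-value was 0.136. The small Maf gene Mafk had a log2 fold change of 0.25 ± 0.16 (SE), and Jdp2, a Jun-binding repressor, one of -0.16 ± 0.12 (SE), in the authors' deposited table. Ddit3, the stress-induced factor CHOP, was at -0.14 ± 0.13 (SE) in the authors' deposited table. The median of the 11 genes was 0.05, with 6 positive and 5 negative.

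Kinases and promoter factors upstream of AP-1 lay close to 0. None of 29 was under an adjusted p-value of 0.05, beside 0.513% of all genes with an adjusted p-value. Without adjustment, 2 (6.90%) had a p-value under 0.05, 1 of each sign, beside 8.10% of all genes with an adjusted p-value. Crtc1, a coactivator of CREB, was at -0.19 ± 0.06 (SE) on the log2 scale in the authors' deposited table, where its adjusted p-value was 0.137. Crebbp, the CREB-binding acetyltransferase, was at 0.15 ± 0.07 (SE) on the log2 scale in the authors' deposited table, where its adjusted p-value was 0.513. Its paralog Ep300 stood at 0.11 ± 0.06 (SE) and the serum response cofactor Elk4 at 0.13 ± 0.08 (SE) in the authors' deposited table. The median over the 29 genes was -0.0029, and their range was from -0.19 to 0.15. These are transcript levels, and the kinases act through phosphorylation, which was not measured.

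Of 18 genes known as targets of AP-1 or of delta-FosB, 17 were listed and 14 had an adjusted p-value. Of the 14, 1 passed an adjusted p-value of 0.05, beside 0.513% of all genes. Without adjustment, 3 (21.4%) had a p-value under 0.05, all negative, beside 8.10% of all genes with an adjusted p-value. The calcium-dependent kinase gene Camk2a passed the threshold, at -0.29 ± 0.06 (SE) on the log2 scale, and its adjusted p-value was 0.00151 in the authors' deposited table. Nptx2, a secreted synaptic pentraxin, and Pdyn, the prodynorphin gene, were negative and had p-values of 0.0116 and 0.0234 before adjustment, per the authors' deposited table. On the log2 scale they were at -0.33 ± 0.13 (SE) and -0.24 ± 0.10 (SE), and adjusted p-values were 0.387 and 0.501, per the authors' deposited table. Ccnd1, the cyclin D1 gene, had a log2 fold change of -0.20 and a p-value of 0.0574 before adjustment, per the authors' deposited table, and 23.4% of its exon length overlaps another gene on the other strand. The median of the 14 genes was -0.05, with 6 positive and 8 negative, and their range was from -0.33 to 0.59.

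Other immediate-early genes had values of both signs, as the AP-1 genes did. Of 29 genes, all with an adjusted p-value, 2 passed 0.05 and both were positive, beside 0.513% of all genes. Nr4a3, an orphan nuclear receptor, was at 0.42 ± 0.10 (SE) on the log2 scale in the authors' deposited table, where its adjusted p-value was 0.00643. Sik1, a salt-inducible kinase that feeds back on CREB coactivators, was at 0.59 ± 0.16 (SE) on the log2 scale in the authors' deposited table, where its adjusted p-value was 0.0361. Without adjustment, 6 positive genes and 1 negative gene had a p-value under 0.05, beside 8.10% of all genes with an adjusted p-value. The zinc-finger genes Egr2 and Egr3 were at 1.06 ± 0.36 (SE) and -0.24 ± 0.08 (SE) in the authors' deposited table, where the adjusted p-values were 0.197 and 0.158. The median over the 29 genes was 0.04, with 18 positive and 11 negative. The log2 fold change of Fos was larger than those of all but Egr2 in this list, and that of Fosb was below its median.

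**Figure D4:**
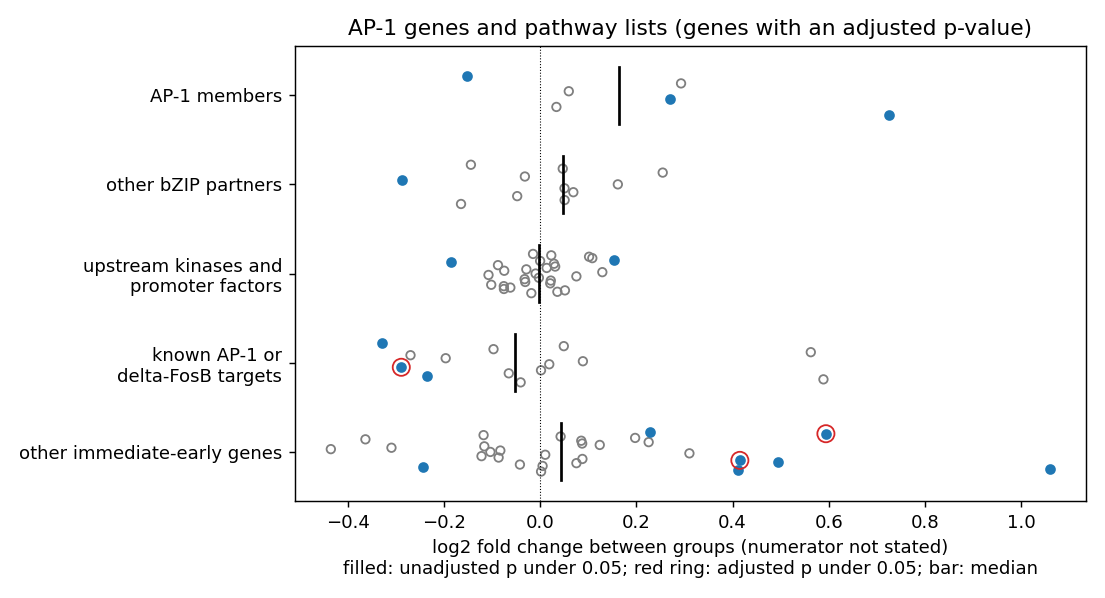
Log2 fold change between the groups for the genes with an adjusted p-value in the AP-1 group and 4 related lists; filled points have an unadjusted p-value under 0.05, red rings an adjusted one under 0.05, and black bars are medians. Fos is the rightmost AP-1 point at 0.73, Jund the leftmost at -0.15, and no AP-1 gene is ringed.

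Markers of cell types and layers moved with the sign of Fos and Fosl2 in some lists. All 10 excitatory and inhibitory neuron markers had an adjusted p-value, and the medians of these lists were -0.02 and 0.0032. An adjusted p-value shows only that their mean counts were above the authors' filter. It does not check the area that was taken. All 6 oligodendrocyte markers, all 6 deep-layer markers and all 5 striatal markers were positive with an unadjusted p-value under 0.05, beside 8.10% of all genes with an adjusted p-value. After adjustment, 5 deep-layer, 1 striatal and no oligodendrocyte marker passed 0.05, beside 0.513% of all genes. With a negative sign, 2 upper-layer markers and 1 excitatory neuron marker passed. The excitatory neuron marker was Camk2a, which is also in the list of AP-1 targets, at -0.29 ± 0.06 (SE) on the log2 scale. The median log2 fold change was 1.13 for the oligodendrocyte, 0.61 for the deep-layer and 1.15 for the striatal markers. That of the 5 upper-layer markers was -0.27. All 5 were negative, 4 of them with an unadjusted p-value under 0.05. The microglial and endothelial lists had medians of -0.13 and -0.16, the astrocyte list of -0.0081 and the blood list of -0.40. The only choroid plexus marker with an adjusted p-value was at 0.59. Summed levels per group could not be given without values per library. The part of these cell types in the values of Fos, Fosl2 and Jund was not tested.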

How the data were processed

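Polyadenylated RNA of 7 libraries was measured with the KAPA mRNA HyperPrep kit from 100 ng of RNA, per the labels' protocols. Per the submitters' processing notes, the authors used Trimmomatic, Subread, DESeq2 and the build mm10. Versions, annotation and strand setting are not given in the sources used here. The authors deposited 1 table: the mean normalized count (a signal averaged over libraries), the log2 fold change and its standard error (log2), the Wald score, and unadjusted and adjusted p-values, per the file headers. The Wald score equalled the log2 fold change over its standard error, and the p-value its two-sided normal probability, in each of the 17729 genes that had one. The deposited adjusted p-values fit a Benjamini-Hochberg adjustment over 14432 genes, and 13060 were analysed here. Of the genes that had a p-value, those with a blank adjusted one had a mean count of 34.8 or less. No count test could be run on this table, so the deposited test was used.

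Computed from it with Python 3.11.15, numpy 2.4.6, pandas 2.3.3 and scipy 1.17.1 were 95% normal confidence intervals, group levels implied by mean and fold change, and the coefficient of variation left after counting error at equal depth. The tool named for the authors' test draws the errors of single genes toward those of similar genes, which affects that coefficient. The adjustment, the 1.2-fold null and the coefficient of variation were tried on simulated data, in which errors were not drawn toward those of similar genes. Named genes are the 8 members and, of each pathway list, the 4 with the smallest unadjusted p-value and any under an adjusted 0.05. From the list of other leucine zipper genes, 1 gene is not reported here. Members and lists were chosen with earlier results of these data known. Annotation was GENCODE M21 (GRCm38, the assembly of mm10), and promoter sequences are from RefSeq, GRCm38.p6. Alternatives changed the threshold, the adjustment, the null hypothesis, the centring and the minimum mean count.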

Additional observations from a re-analysis of the deposited data

How the results depend on the processing

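No AP-1 gene passed under any of the 7 alternatives, all of which reuse the authors' deposited values and are not independent checks. The adjusted p-values over these ran from 0.220 to 1 for Fos, from 0.407 to 1 for Fosl2 and from 0.485 to 1 for Jund, and no sign changed. A minimum mean count of 100 left Fos out, so that it has 6 values. The count of all genes under the threshold, 67, became 101 at a threshold of 0.1, 21 with a Bonferroni adjustment and 2 against a null of a change of at most 1.2-fold. The last 2 are stricter by construction. Against the 1.2-fold null the count of AP-1 targets went from 1 to 0 and that of other immediate-early genes from 2 to 0, and the latter was also 0 with Bonferroni. The other values stayed within 1.5 times. Among single named genes, 5 adjusted p-values went above the threshold and 189 kept their side. The ratios of standard errors, also taken over 100 and 500 similar genes, and the levels by longest transcript were alternatives chosen after seeing the data. No paired analysis was possible because values per library were not analysed here. Hence no library was left out and no other normalization or count test was run.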

Other observations

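Among the 29 other immediate-early genes, 2 had a standard error over 1.5 times the median of 200 genes near them in mean count, and the list had a median ratio of 1.07. The genes named here were chosen after their values were seen. Arc, which encodes a synaptic protein whose transcript moves into dendrites, was at 0.0017 ± 0.35 (SE) on the log2 scale and a mean normalized count of 446 in the authors' deposited table. That error is 3.52 times the median of 200 genes of similar mean count. Egr1 was at 0.41 ± 0.19 (SE) and a mean normalized count of 2694 in the authors' deposited table, an error 3.04 times that median. For Nr4a1 and Npas4, also activity-induced transcription factors, the ratios were 1.40 and 1.04. The authors' deposited table gave them log2 fold changes of 0.08 ± 0.10 (SE) and -0.04 ± 0.12 (SE). Nr4a2 and the clock gene Per1 stood at 0.50 ± 0.18 (SE) and 0.23 ± 0.09 (SE) in the authors' deposited table, where the adjusted p-values were 0.260 and 0.356.

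Fos lies on chromosome 12 near other leucine zipper genes. Jdp2, 122 kb away, was at -0.16 ± 0.12 (SE) on the log2 scale in the authors' deposited table. Batf, 209 kb away, had a mean of 2.22 normalized counts and no adjusted p-value in the authors' deposited table. The nearest gene in the table, Tmed10 at 99.0 kb, was at 0.03 ± 0.06 (SE) in the authors' deposited table.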
